A study of Mus musculus with 9 samples.

Results

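Sox genes encode transcription factors that bind DNA through a high-mobility-group (HMG) box, and 8 of them that mark stem and progenitor cells of the nervous system were compared between 2 kinds of mouse medulloblastoma and normal cerebellum. They were chosen by name: Sox4, Sox11 and Sox12 (the SoxC class), Sox1, Sox2 and Sox3 (SoxB1), Sox21 (SoxB2) and Sox9 (SoxE). All 8 were among the 23360 genes listed for each library, and 7 of them were among the 14337 genes with enough signal to be tested. Medulloblastoma of the Sonic hedgehog class is a tumour of the cerebellum that arises from granule neuron progenitors. A1G tumours came from mice with Math1-cre, A1G and Ptch1+/-, and Ptch1 tumours from mice with Ptch1+/- alone, so the tumours of both kinds share the mutant Ptch1 allele. Tumour mice were of mixed strain, and the cerebellum was that of adult wild type C57BL/6 mice, so that strain and tissue cannot be told apart in the comparisons with cerebellum. Each group had 3 libraries of ribosome-depleted total RNA, sequenced 3 to a chip, but which libraries shared a chip was not recorded in the labels. Math1 (Atoh1) is a gene of granule neuron progenitors, and its promoter drives the Cre. The ages of tumour mice, any pooling and the nature of A1G beyond its name are not given either.

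SoxB1 factors keep neural progenitors undifferentiated, and Sox21 acts against them in the same cells as they leave the cycle. SoxC factors act later, in committed progenitors and young neurons, where they switch on neuronal genes. Sox9 sets up glial fate and stem cell properties. In the adult cerebellum, Sox2 and Sox9 are known as genes of Bergmann glia and astrocytes, and granule neuron progenitors have disappeared. In bulk tissue such as this, fewer cells of a type and less RNA per cell cannot be told apart.

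The stretch of DNA before the start of a gene holds much of its promoter. Those of the 3 SoxC genes are printed because these genes rose together in the tumours, and that of Sox2 because it did not. Capitals mark matches to any of 8 short motifs searched on both strands. Sequences are RefSeq's on build GRCm38.p6, in the direction of transcription, and end before the first exon annotated by GENCODE.
Sox4, chr13:28953714-28953949, minus strand: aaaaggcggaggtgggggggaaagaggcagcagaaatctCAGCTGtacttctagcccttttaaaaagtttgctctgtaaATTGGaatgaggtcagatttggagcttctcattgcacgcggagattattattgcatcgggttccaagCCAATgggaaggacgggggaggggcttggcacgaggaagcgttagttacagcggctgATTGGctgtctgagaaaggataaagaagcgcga
Sox11, chr12:27342719-27342968, minus strand: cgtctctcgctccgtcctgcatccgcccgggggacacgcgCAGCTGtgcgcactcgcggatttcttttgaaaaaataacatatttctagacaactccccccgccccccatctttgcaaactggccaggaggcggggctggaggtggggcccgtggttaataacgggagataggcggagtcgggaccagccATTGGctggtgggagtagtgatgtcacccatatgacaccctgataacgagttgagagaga
Sox12, chr2:152398064-152398296, minus strand: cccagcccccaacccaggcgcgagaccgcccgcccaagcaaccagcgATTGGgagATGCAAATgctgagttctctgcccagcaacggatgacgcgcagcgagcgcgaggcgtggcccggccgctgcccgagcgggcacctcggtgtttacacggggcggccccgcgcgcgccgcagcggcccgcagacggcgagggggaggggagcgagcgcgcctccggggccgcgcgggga
Sox2, chr3:34649745-34649994, plus strand: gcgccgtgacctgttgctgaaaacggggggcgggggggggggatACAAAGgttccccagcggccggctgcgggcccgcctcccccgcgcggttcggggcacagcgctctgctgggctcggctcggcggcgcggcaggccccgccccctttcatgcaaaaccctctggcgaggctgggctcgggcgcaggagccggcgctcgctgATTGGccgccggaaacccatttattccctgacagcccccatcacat

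Of the 8 genes, 6 had an entry among the RefSeq promoters, and Sox3 and Sox9 had none. Over the 250 bases before the RefSeq start, CCAAT, the CCAAT box (ATTGG on the other strand), was found in 5 of the 6, against 33.8% of 32536 distinct promoters of this length. Of the Sox1 window, 224 bases lie in the Sox1 exon annotated by GENCODE. The Sox2 window ends at 34649994, ahead of the GENCODE start at 34650405, and lies within the longer transcript Sox2ot. Sox4 held 4 matches, of which the nearest to the start lies outside the printed stretch. CAGCTG, an E-box of the kind bound by basic helix-loop-helix factors, was found in Sox4 and Sox11, and in 13.1% of all promoters. It began 211 bases before the start of Sox4 and 210 before that of Sox11. ATGCAAAT, the octamer bound by POU factors, was found in Sox12, where all promoters held it in 1.62%. ACAAAG, a Sox-type motif, was found in Sox2, and in 16.5% of all promoters. ACAATG (another Sox-type motif), CAGATG (an E-box), GACCACCCA (the Gli motif) and TATAAA (the TATA box) had no match in these windows. No motif contains another, and no matches in these windows share a base. Guanine and cytosine made up 50.8% of the Sox4 window, 58% of that of Sox11, 74.4% of that of Sox12 and 72% of that of Sox2, against a median of 52.4% over all promoters. A match is a run of letters and not a measured binding site.

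Levels are counts-per-million (CPM), scaled over all 9 libraries, with replicates named in the order 1, 2 and 3 and means ± SD (n = 3). Differences are log2 values from edgeR's quasi-likelihood fit with their standard error (SE), and adjusted p is Benjamini-Hochberg's over all 14337 tested genes, with 0.05 as threshold. Libraries held 2350941 to 9290237 fragments, and 3 fragments, taken as the floor, corresponded to 0.337 to 1.23 CPM. What these p-values weigh is the spread from library to library, since the labels do not say that each came from a separate animal. Of 6 fixed markers of granule neuron progenitors, 5 were higher in each tumour kind than in cerebellum. Over all genes 16.3% were higher in A1G and 20.2% in Ptch1 tumours. The other marker, Zic1, averaged 1189 CPM in A1G tumours, 1543 in Ptch1 tumours and 1209 in cerebellum. All 6 markers of mature granule neurons and all 6 of Purkinje cells were lower in each tumour kind, where 16.1% and 19.7% of all genes were. A1G replicate 2 was the least like its group (Spearman correlations across genes of 0.887 and 0.900 with the others), and its Mki67, a gene of dividing cells, was at 620 CPM against 3475 and 2597 CPM in A1G replicates 1 and 3. Cerebellum replicate 1 held 2690 CPM of 3 choroid plexus markers, against 38.6 and 85.7 CPM in the other cerebellum libraries and at most 9.58 CPM in the tumours. For several printed differences, the value without 1 of these libraries is given as well.

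The comparison with cerebellum asked which of the Sox genes were expressed above the normal adult tissue in each tumour kind. In A1G tumours Sox1, Sox4, Sox11 and Sox12 rose, which is 4 of 7 tested genes, where 16.3% of all genes rose, and 0 fell, where 16.1% of all genes fell (32.4% changed either way). In Ptch1 tumours the same 4 and Sox9 rose, 5 of 7 where 20.2% of all genes did, and Sox21 fell, 1 of 7 where 19.7% did (40.0% either way). The Sox9 call was lost in 13 of 26 other settings. The median log2 difference of the 7 was 2.13 in A1G tumours and 2.14 in Ptch1 tumours, beside 0.03 and 0.00 over all tested genes. Both counts use the same cerebellum libraries. At an unadjusted p under 0.05, all 7 differed in the A1G comparison and 6 in the Ptch1 comparison, where 42.6% and 48.5% of all genes did. Groups did not overlap for all 7 genes between A1G tumours and cerebellum (45.9% of all genes), with 5 above (22.5%) and Sox2 and Sox21 below (23.4%). Between Ptch1 tumours and cerebellum they did not overlap for 5 of 7 (54.3%), with Sox1, Sox4, Sox11 and Sox12 above (27.2%) and Sox21 below (27.0%). Sox21 had enough signal to be tested only through the cerebellum libraries, so its direction was set in advance. It lends no support to the counts and medians of this paragraph.

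**Figure D1:**
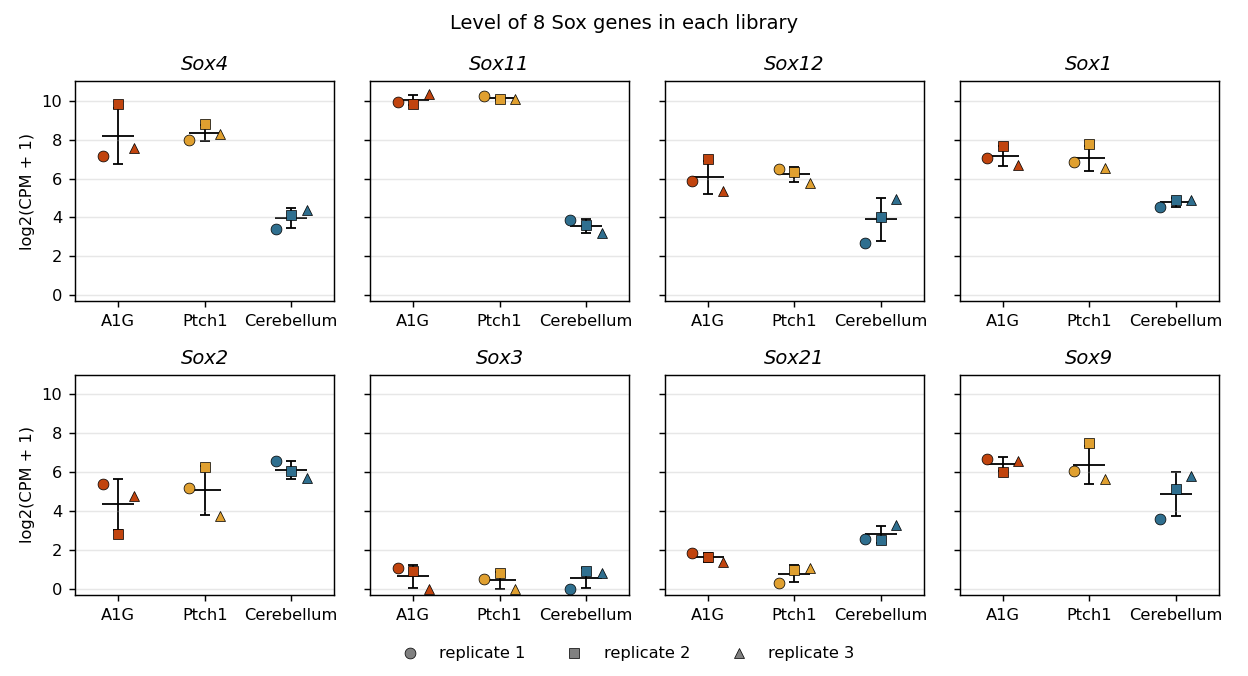
Level of each of the 8 Sox genes in every library, as log2(CPM + 1), by group. Points are libraries, with the marker shape giving the replicate number, and bars are the mean ± SD of 3 libraries. Sox11 lies near 10 in all 6 tumour libraries and between 3.2 and 3.9 in cerebellum, whereas Sox2 is highest in cerebellum replicate 1 and Sox3 is near 0 in every library.

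Sox11 had the largest difference of the Sox genes. It is a gene with 1 exon (chr12:27334264-27342574, mm10) whose protein drives neuronal gene expression in newly committed progenitors. The A1G tumours were at 982, 916 and 1272 CPM, the Ptch1 tumours at 1189, 1088 and 1063 CPM, and cerebellum at 13.7, 11.3 and 8.19 CPM. Every tumour library lay far above every cerebellum library, and the tumour groups overlapped. The log2 difference from cerebellum was 6.58 (SE 0.34, edgeR adjusted p = 6.63e-07) in A1G tumours and 6.66 (SE 0.34, edgeR adjusted p = 2.06e-07) in Ptch1 tumours, which is 95.9-fold and 101-fold. By size it ranked 108 and 118 of the 14337 genes. Leaving out any library kept the differences within 6.39 to 6.77 and 6.46 to 6.84.

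Sox4 is a SoxC gene of immature cells in the brain and in many other tissues (chr13:28948919-28953713, 1 exon). Its level was 143, 912 and 186 CPM in A1G tumours, 248, 439 and 311 in Ptch1 tumours, and 9.72, 16.7 and 20.0 CPM in cerebellum. All tumour libraries exceeded all cerebellum libraries, and A1G replicate 2 stood far above the other A1G libraries. Sox4 rose by 4.74 (SE 0.68, edgeR adjusted p = 2.72e-04) in A1G tumours and by 4.42 (SE 0.67, edgeR adjusted p = 2.83e-04) in Ptch1 tumours. Without A1G replicate 2 the A1G difference was 3.40 and remained past the threshold, with adjusted p-values of at most 0.00254 over all left-out libraries. The 2 annotated genes Sox4 and Gm26735, a long non-coding RNA, overlap by 2753 bases on opposite strands, and their reads cannot be told apart here because no use of strand is stated.

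Sox12 encodes the weakest activator of the SoxC class (chr2:152393611-152398063, 1 or 2 exons). The values were 57.1, 126 and 39.9 CPM in A1G tumours, 90.0, 80.8 and 54.4 in Ptch1 tumours, and 5.51, 15.5 and 29.8 CPM in cerebellum. The groups did not overlap, but the gap was narrow between A1G replicate 3 and cerebellum replicate 3. It rose by 2.13 (SE 0.55, edgeR adjusted p = 0.0110) in A1G tumours and by 2.14 (SE 0.55, edgeR adjusted p = 0.00844) in Ptch1 tumours, 4.37-fold and 4.40-fold. The differences ran from 1.50 to 2.86 and from 1.70 to 2.85 with any library left out, and every one passed. The A1G difference was lowest without A1G replicate 2, and both were highest without cerebellum replicate 3. Cerebellum itself varied more in Sox12 than in Sox11, with its highest library 5.39 times its lowest.

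Sox1 is a SoxB1 gene of neural progenitors (chr8:12395295-12400126, 1 exon) that lies within the longer transcript Sox1ot on the same strand. In A1G tumours it reached 133, 206 and 102 CPM, in Ptch1 tumours 116, 216 and 90.4 CPM, and in cerebellum 22.1, 28.9 and 28.8 CPM. Each tumour library was above each cerebellum library, and replicate 2 was the highest in both tumour groups. Sox1 rose by 2.46 (SE 0.38, edgeR adjusted p = 4.36e-04) in A1G tumours and by 2.41 (SE 0.38, edgeR adjusted p = 3.51e-04) in Ptch1 tumours.

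Sox2, the SoxB1 gene of neural stem cells and adult astroglia (chr3:34650405-34652461, 1 exon), went the other way from Sox1 in its values. Its levels were 41.3, 6.24 and 26.7 CPM in A1G tumours, 35.3, 77.4 and 12.6 in Ptch1 tumours, and 94.8, 66.9 and 50.5 CPM in cerebellum. All A1G libraries were below all cerebellum libraries, whereas Ptch1 replicate 2 lay inside the cerebellum range. The log2 difference from cerebellum was -1.52 in A1G tumours (SE 0.65, 95% interval -2.94 to -0.11, edgeR adjusted p = 0.0941) and -0.74 in Ptch1 tumours (SE 0.63, 95% interval -2.10 to 0.63, edgeR adjusted p = 0.378), and neither passed. The A1G difference passed without the filter on low genes (-1.49, edgeR adjusted p = 0.0320) and with DESeq2 (-1.54, adjusted p = 0.0469). It was -2.12 without A1G replicate 1 and -1.05 without A1G replicate 2, and did not pass with any library left out (edgeR adjusted p at least 0.0545). Leaving out a library moved the Ptch1 difference between -1.54, without Ptch1 replicate 2, and -0.32, without Ptch1 replicate 3.

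Sox2ot is a non-coding transcript on the same strand that contains the whole of Sox2 (chr3:34104270-34682619). It fell in both tumour kinds, by 2.42 in A1G tumours (edgeR adjusted p = 0.00789) and by 3.20 in Ptch1 tumours (edgeR adjusted p = 0.00120). It was at 7.004, 1.87 and 9.05 CPM in A1G tumours, 5.72, 3.03 and 1.15 in Ptch1 tumours, and 33.6, 23.7 and 37.1 CPM in cerebellum. The groups of tumours and cerebellum did not overlap. How fragments shared by the pair were assigned is not stated in the labels or file headers.

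Sox3, a SoxB1 gene on the X chromosome (chrX:60891366-60893430, 1 exon), had 3, 3 and 0 fragments in A1G tumours, 2, 7 and 0 in Ptch1 tumours, and 0, 3 and 4 in cerebellum. No library reached 1 FPKM (fragments per kilobase of gene and per total, on the authors' scaling), so it was not tested. A difference in Sox3 between the groups was not detectable at this depth.

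Sox21 is the SoxB2 repressor that opposes SoxB1 factors (chr14:118233232-118237030, 1 exon), and overlaps the non-coding gene Gm4675 on the opposite strand. Its counts were low everywhere, with 7, 7 and 4 fragments in A1G tumours, 1, 9 and 3 in Ptch1 tumours, and 19, 16 and 45 in cerebellum. Scaled, these are 2.58, 2.18 and 1.64 CPM, then 0.229, 1.01 and 1.15 CPM, then 4.99, 4.87 and 8.99 CPM. The 3 groups did not overlap: cerebellum was highest, A1G tumours lay between, and Ptch1 tumours were lowest. Sox21 fell by 2.95 in Ptch1 tumours (SE 0.69, edgeR adjusted p = 0.00495), and its difference of -1.55 in A1G tumours did not pass (SE 0.65, edgeR adjusted p = 0.0899). It had entered the test only through the 3 cerebellum libraries, in which alone it reached 1 FPKM, so its direction was set by the filter and it lends no support to a count.

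Sox9 is the SoxE gene of glial and stem cell fate (chr11:112782224-112787760, 3 exons). It was at 101, 63.0 and 93.4 CPM in A1G tumours, 65.3, 179 and 48.7 in Ptch1 tumours, and 11.3, 34.7 and 55.5 CPM in cerebellum. A1G tumours lay above cerebellum in every library, while Ptch1 replicate 3 was below cerebellum replicate 3. Sox9 rose by 1.53 in Ptch1 tumours (SE 0.56, edgeR adjusted p = 0.0441), and its difference of 1.34 in A1G tumours did not pass (SE 0.56, 95% interval 0.12 to 2.55, edgeR adjusted p = 0.0864). The call was unstable in both: without Ptch1 replicate 2 the Ptch1 difference was 0.75 (edgeR adjusted p = 0.282), and without cerebellum replicate 1, the library with the most choroid plexus marker RNA, it was 1.10 (edgeR adjusted p = 0.124). The A1G difference was 0.91 without cerebellum replicate 1 (edgeR adjusted p = 0.226), and it passed without cerebellum replicate 3 (1.90, edgeR adjusted p = 0.0391) and without Ptch1 replicate 2 (1.34, edgeR adjusted p = 0.0449).

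**Figure D2:**
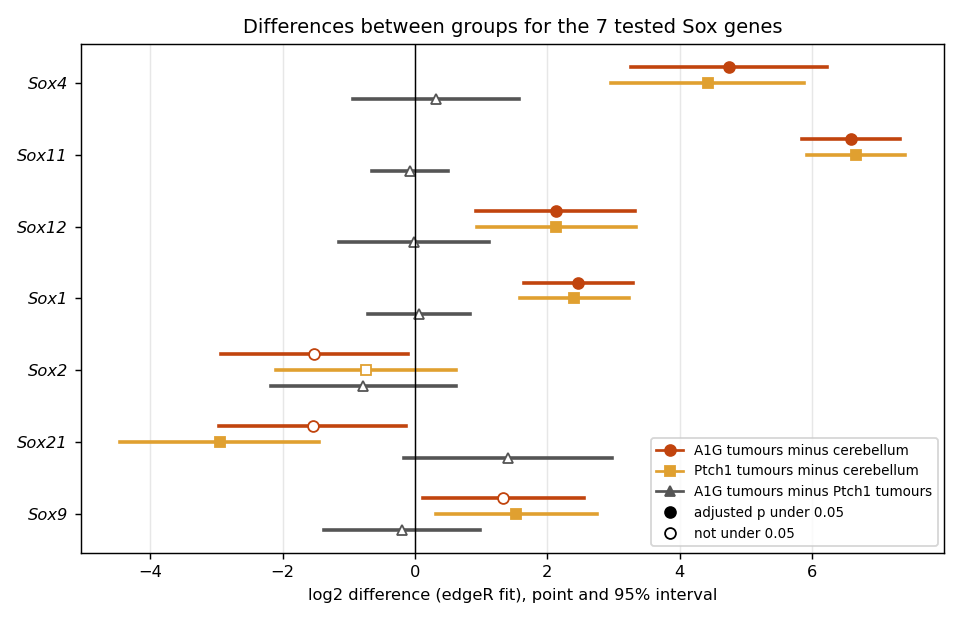
Log2 difference between groups for the 7 tested Sox genes (horizontal axis, edgeR fit), with 95% intervals. Circles are A1G tumours minus cerebellum, squares Ptch1 tumours minus cerebellum and triangles A1G minus Ptch1 tumours, and filled symbols have an adjusted p under 0.05. Sox11 stands furthest right at 6.58 and 6.66, and the intervals of all 7 triangles include 0.

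The tumour kinds were then set against each other, which asks whether Math1-cre and A1G together come with another Sox expression than Ptch1+/- alone. Math1-cre and A1G cannot be told apart in this comparison. No tested Sox gene passed between A1G and Ptch1 tumours: 0 of 7 passed edgeR's test, 0 had an unadjusted p under 0.05, and 0 passed with DESeq2 or limma. Over all genes 0.0139% passed, so this comparison called almost nothing of any kind. The smallest standard error was that of Sox11, with a log2 difference of -0.08 (95% interval -0.65 to 0.50). For Sox1 it was 0.06 (-0.72 to 0.83), for Sox12 -0.01 (-1.14 to 1.12) and for Sox9 -0.20 (-1.38 to 0.98). The Sox12 difference was -0.63 without A1G replicate 2, and that of Sox9 was 0.59 without Ptch1 replicate 2. The Sox1 difference was -0.27 without A1G replicate 2, with the gene filter of all libraries kept, and 0.51 without Ptch1 replicate 2. That of Sox11 ran from -0.23 to 0.02 over the left-out libraries.

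Differences of the other 3 were less closely bounded. The Sox4 difference of 0.32 (95% interval -0.93 to 1.57) rested on A1G replicate 2, and was -1.01 without it (edgeR adjusted p = 0.326). The Sox2 difference of -0.78 (-2.18 to 0.62) rested on Ptch1 replicate 2, and was 0.02 without that library. Sox21 had its 3 A1G values above its 3 Ptch1 values, by 1.40 (-0.17 to 2.98, edgeR adjusted p = 0.513), on at most 9 fragments a library. It was the only one of the 7 without overlap between the tumour kinds, where 15.5% of all genes had none (6.70% with A1G above, 8.84% with A1G below). An exact two-sided permutation test of 3 libraries against 3 cannot give less than p = 0.1, the value found for Sox21.

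Levels of different genes were compared per length, as each gene's share of the summed FPKM of the 8 genes within a library. SoxC genes made up 78.4 ± 8.37% in A1G tumours and 78.5 ± 8.38% in Ptch1 tumours, but 18.2 ± 6.77% in cerebellum. SoxB1 genes made up 14.6 ± 5.08%, 14.9 ± 5.27% and 64.8 ± 16.5%. Tumours and cerebellum did not overlap in either class, with SoxC between 69.4% and 86.5% in all 6 tumour libraries and between 11.1% and 24.6% in cerebellum. Sox9, the SoxE gene, took 6.89 ± 3.53%, 6.51 ± 3.21% and 14.1 ± 8.90%, with overlap between all groups, although its own level was not lower in tumours. The total itself was larger in tumours, at 265 to 559 FPKM against 56.3 to 60.6 FPKM in cerebellum, on the authors' scaling. A smaller share is thus not by itself a lower level. Mean shares of Sox1 were 10.6% in A1G tumours, 10.01% in Ptch1 tumours and 11.6% in cerebellum, while its level rose. The SoxB1 share was thus smaller in tumours mainly through Sox2. In the same order Sox4 took 34.5%, 34.04% and 9.34%, and Sox11 39.3%, 39.4% and 2.25%. Sox12 took 4.59%, 5.09% and 6.58%, so the SoxC share was larger through Sox4 and Sox11.

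**Figure D3:**
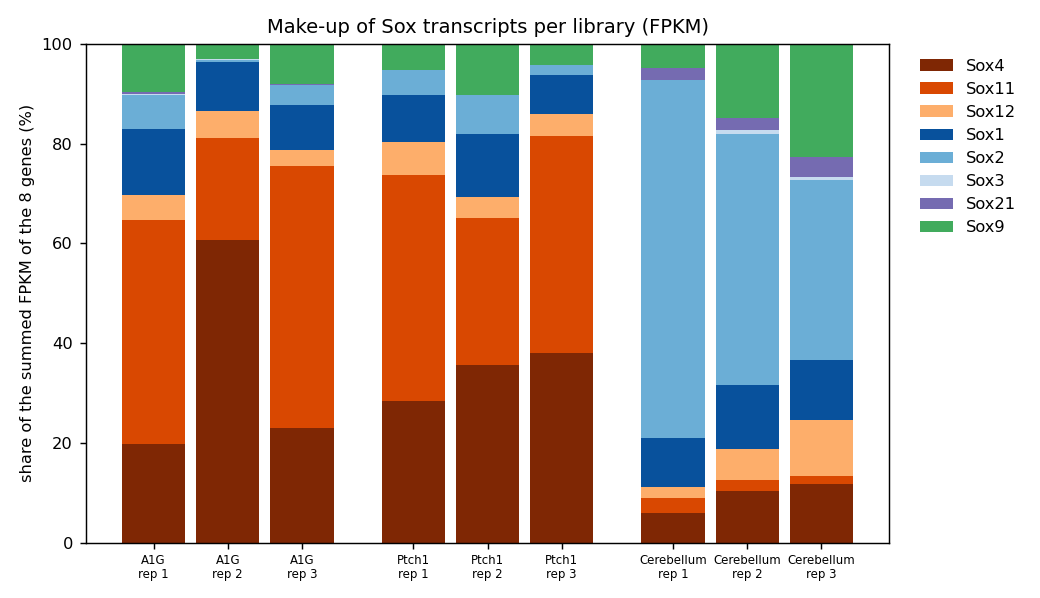
Make-up of the 8 Sox transcripts in each of the 9 libraries, as the share (%) of their summed FPKM, 1 stacked bar per library. Brown to orange segments (Sox4, Sox11, Sox12) fill 69.4% to 86.5% of the tumour bars, and blue segments (Sox1, Sox2, Sox3) fill 48.8% to 81.7% of the cerebellum bars.

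The order of the genes also changed. Sox2 was the highest of the 8 per length in every cerebellum library, with 52.7 ± 18.02% of the sum, and held 3.82 ± 3.21% in A1G and 4.83 ± 2.89% in Ptch1 tumours. Sox11 was the highest in 4 tumour libraries, and Sox4 in replicate 2 of both tumour kinds. The FPKM ratio of Sox11 to Sox4 was 2.28, 0.335 and 2.28 in A1G tumours, 1.60, 0.827 and 1.14 in Ptch1 tumours, and 0.469, 0.224 and 0.137 in cerebellum. A1G replicate 2 was thus inside the cerebellum range for this ratio, and all other tumour libraries were above it. Within SoxB1, the FPKM ratio of Sox1 to Sox2 was 1.89, 19.4 and 2.23 in A1G tumours, 1.93, 1.64 and 4.20 in Ptch1 tumours, and 0.137, 0.254 and 0.335 in cerebellum. Sox1 therefore exceeded Sox2 in all tumour libraries and lay under it in all cerebellum libraries.

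Both Sox2 and Sox9 are astroglial genes in the adult cerebellum, and their values are given beside those of 10 astrocyte and Bergmann glia markers. The summed marker level was 2324, 1215 and 2014 CPM in A1G tumours, 1150, 2373 and 1255 in Ptch1 tumours, and 8464, 7201 and 6246 CPM in cerebellum. Slc1a2 alone averaged 1077 CPM in A1G tumours, 870 in Ptch1 tumours and 1224 in cerebellum. The mean sums were 1851, 1593 and 7304 CPM, so this gene made up much of the tumour sums. Of the 10 markers 8 fell in each tumour kind, where 16.1% (A1G) and 19.7% (Ptch1) of all genes fell. The median log2 differences of the 10 were -3.29 and -2.88, and Gfap and Slc1a2 did not pass. None of the 10 was at 0 in all libraries of a group. Sox2 in A1G tumours and the marker sum both had lower values than in cerebellum, and Ptch1 replicate 2 had the highest Sox2, Sox9 and marker sum of the tumour libraries. In cerebellum the order of libraries by Sox2 was that of the marker sum, and that by Sox9 was its reverse. The part of these cells in the Sox results was not tested.

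**Figure D4:**
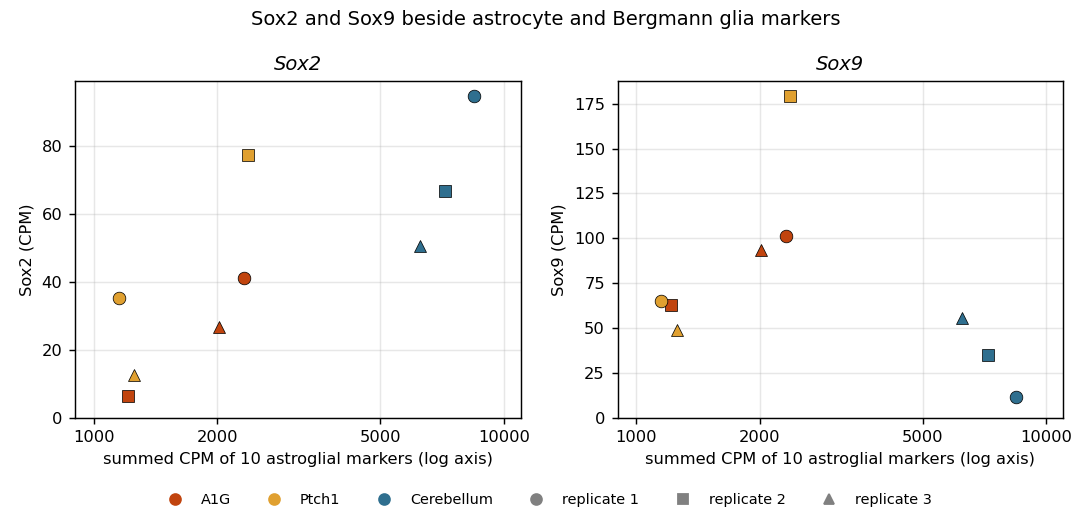
Level of Sox2 (left) and Sox9 (right) in CPM against the summed CPM of 10 astrocyte and Bergmann glia markers (log axis), 1 point per library. Cerebellum libraries lie at 6246 to 8464 CPM of markers and tumours at 1150 to 2373 CPM, while Sox9 is higher in Ptch1 replicate 2 (179 CPM) than in any cerebellum library.

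The FPKM ratio of Sox2 to Sox9 was 14.7, 3.38 and 1.59 in cerebellum and between 0.173 and 0.945 in the tumours. Sox2 was above Sox9 in each cerebellum library and below it in each tumour library. Among the cerebellum libraries, replicate 3 was highest for Sox4, Sox9, Sox12 and Sox21, 4 of the 7 tested genes. Markers of other cells also moved with the groups. The sum of 8 oligodendrocyte markers was 73.1 to 437 CPM in tumours and 7955 to 8516 CPM in cerebellum. That of 6 oligodendrocyte precursor markers was 471 to 1134 CPM in tumours and 205 to 221 CPM in cerebellum. Pdgfra alone averaged 433 CPM in A1G tumours, 674 in Ptch1 tumours and 50.4 in cerebellum. The mean sums of the 6 were 762, 953 and 212 CPM, so this gene made up much of the tumour sums. Of the 6 precursor markers 4 rose in each tumour kind, where 16.3% (A1G) and 20.2% (Ptch1) of all genes rose. In A1G tumours 0 fell and in Ptch1 tumours 1, where 16.1% and 19.7% of all genes fell. Gpr17 averaged 45.5 CPM in A1G tumours, 18.8 in Ptch1 tumours and 67.3 in cerebellum, and Olig1 34.5, 36.1 and 41.7 CPM. The part of oligodendrocytes and their precursors in the Sox results was not tested.

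The other 12 Sox family genes were examined the same way, and 8 were tested. Sox5, a SoxD gene of neuronal and glial development, was at 97.3, 165 and 118 CPM in A1G tumours, 117, 129 and 109 in Ptch1 tumours, and 21.3, 30.1 and 41.5 CPM in cerebellum. It rose without overlap, by 2.03 (SE 0.31, edgeR adjusted p = 4.04e-04) and 1.93 (SE 0.31, edgeR adjusted p = 3.96e-04). Sox18, a SoxF gene of endothelial cells, was at 19.9, 9.98 and 9.46 CPM in A1G tumours, 30.9, 28.5 and 32.6 in Ptch1 tumours, and 0.525, 1.22 and 4.19 CPM in cerebellum. It rose by 2.64 (SE 0.60, edgeR adjusted p = 0.00525) and 3.86 (SE 0.60, edgeR adjusted p = 3.48e-04), and by 3.88 and 5.10 without cerebellum replicate 3. Sox18 reached 1 FPKM in all 6 tumour libraries and in 1 of cerebellum. It thus passed the filter through the tumours and lends no support to a count. The sum of 5 endothelial markers was 34.6 to 91.4 CPM in tumours and 128 to 180 CPM in cerebellum. The part of endothelial cells in the Sox18 result was not tested. Every A1G library was below every Ptch1 library in Sox18, with a difference of -1.22 that did not pass (SE 0.53, edgeR adjusted p = 0.444).

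Sox10, the SoxE gene of oligodendrocytes, fell in Ptch1 tumours by 1.77 (SE 0.45, edgeR adjusted p = 0.00819), and its A1G difference of -0.92 did not pass (edgeR adjusted p = 0.134) except without A1G replicate 1 (-1.51, edgeR adjusted p = 0.0273). It was at 31.0, 10.3 and 14.4 CPM in A1G tumours, 12.4, 5.95 and 13.0 in Ptch1 tumours, and 37.0, 29.5 and 38.7 CPM in cerebellum. Sox13, a SoxD gene, fell by 2.04 (edgeR adjusted p = 0.0305) and 2.37 (edgeR adjusted p = 0.0110), but like Sox21 it passed the filter only through cerebellum. The A1G call of Sox13 ended in 9 of 22 settings, among them without A1G replicate 1 (edgeR adjusted p = 0.0901), A1G replicate 3 (0.0658) or, with the gene filter of all libraries kept, cerebellum replicate 3 (0.142). Its Ptch1 call ended in 1 of 22, without cerebellum replicate 3 (edgeR adjusted p = 0.0647). Sox6, Sox8, Sox15 and Sox17 passed in no comparison. Sox7, Sox14, Sox30 and Sry were under the filter. The median over the 8 was -0.08 in A1G tumours and -0.71 in Ptch1 tumours, against 2.13 and 2.14 for the 7 progenitor Sox genes. Sox13, Sox18 and Sox21 passed the filter through the groups where they are high, and lend no support to these medians.

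Of 18 further genes of neural stem and progenitor cells, 17 were tested. They include Mki67 and Pcna, genes of dividing cells of any kind, which rose in both tumour kinds. The counts are therefore not of stem cell genes alone, and 7 genes did not pass in A1G and 7 in Ptch1 tumours. In A1G tumours 10 rose and 0 fell (median log2 difference 1.35), where 16.3% and 16.1% of all genes did. In Ptch1 tumours 9 rose and 1 fell (median 1.24), where 20.2% and 19.7% did, and the gene that fell was Prom1 (-1.21, edgeR adjusted p = 0.0441). Mki67 and Lhx2 reached 1 FPKM in no cerebellum library and passed the filter only through the tumours. Their direction was thus set by the filter, and they lend no support to these counts. Mki67 had the values 3475, 620 and 2597 CPM in A1G tumours, 3433, 3946 and 3913 in Ptch1 tumours, and 5.51, 7.30 and 3.79 CPM in cerebellum. It rose by 8.67 (SE 0.68, edgeR adjusted p = 3.45e-06) and 9.42 (SE 0.70, edgeR adjusted p = 1.67e-06), with A1G replicate 2 the lowest tumour library. Nes, the intermediate filament of neural stem cells, was at 484, 144 and 167 CPM in A1G tumours, 105, 855 and 157 in Ptch1 tumours, and 25.5, 20.4 and 16.8 CPM in cerebellum. Its differences were 3.67 (SE 0.76, edgeR adjusted p = 0.00299) and 4.16 (SE 0.77, edgeR adjusted p = 0.00112). They were 2.90 without A1G replicate 1 and 2.65 without Ptch1 replicate 2, both past the threshold, and Ptch1 replicate 2, the tumour library highest in Sox2, was also the highest in Nes.

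Pou3f2, a POU factor that acts with SoxB1 and SoxC proteins on neural enhancers, rose by 3.13 (SE 0.41, edgeR adjusted p = 1.32e-04) and 3.30 (SE 0.41, edgeR adjusted p = 6.58e-05). Its levels were 254, 85.5 and 166 CPM in A1G tumours, 152, 268 and 150 in Ptch1 tumours, and 17.9, 20.98 and 19.0 CPM in cerebellum, without overlap. Lhx2, a homeobox gene of progenitors, had no fragment in any cerebellum library and was found in A1G tumours at 15.5, 5.61 and 16.4 CPM, and in Ptch1 tumours at 19.7, 26.3 and 30.7 CPM. Against the mean over libraries of a floor of 3 fragments each (0.766 CPM), it was at least 16.3-fold higher in A1G and at least 33.3-fold higher in Ptch1 tumours.

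SoxC proteins act on genes of young neurons, and 10 such genes were examined. In A1G tumours 5 rose and 0 fell (median 1.14), where 16.3% of all genes rose and 16.1% fell. In Ptch1 tumours 6 rose and 0 fell (median 1.52), where 20.2% of all genes rose and 19.7% fell. Nhlh1 had no fragment in cerebellum and passed the filter only through the tumours. Its direction was thus set by the filter, and it lends no support to these counts. Dcx, a microtubule protein of migrating neurons, was at 697, 527 and 1208 CPM in A1G tumours, 504, 376 and 509 in Ptch1 tumours, and 12.9, 12.8 and 24.2 CPM in cerebellum. It rose by 5.60 (SE 0.43, edgeR adjusted p = 3.04e-06) and 4.79 (SE 0.42, edgeR adjusted p = 4.70e-06). Tead2, a transcription factor known as a SoxC target, was at 175, 222 and 90.9 CPM, then 59.1, 203 and 161 CPM, against 4.99, 4.56 and 3.59 CPM in cerebellum. Tead2 rose by 5.22 (SE 0.53, edgeR adjusted p = 2.08e-05) and 5.01 (SE 0.52, edgeR adjusted p = 1.87e-05).

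Stmn1, a regulator of microtubules in dividing and young cells, rose by 2.16 (SE 0.30, edgeR adjusted p = 1.86e-04) and 3.001 (SE 0.31, edgeR adjusted p = 1.56e-05). It was at 579, 437 and 609 CPM in A1G tumours, 1002, 1143 and 757 in Ptch1 tumours, and 150, 123 and 89.5 CPM in cerebellum. Nhlh1, a helix-loop-helix gene of newborn neurons, had 0 fragments in cerebellum and was at 79.6, 304 and 98.3 CPM in A1G and 78.1, 69.1 and 88.9 CPM in Ptch1 tumours. On the same floor it was at least 209.7-fold higher in A1G tumours (116-fold without A1G replicate 2) and at least 102.7-fold higher in Ptch1 tumours. A1G replicate 2 was the library highest in Sox4, Sox12 and Nhlh1 and the tumour library lowest in Sox2 and Mki67. Neurod1, a helix-loop-helix gene of maturing and adult granule neurons, did not pass (-0.09 and -0.63).

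Of 10 glial genes linked to Sox9, 3 rose and 4 fell in A1G tumours (median -0.26), where 32.4% of all genes changed either way. In Ptch1 tumours 3 rose and 5 fell (median -0.84), where 40.0% did. Nfia and Nfib, partners of Sox9 in the start of gliogenesis that also act in granule neuron progenitors, rose. Nfia was at 1449, 1978 and 1466 CPM in A1G tumours, 1056, 1468 and 1113 in Ptch1 tumours, and 124, 243 and 389 CPM in cerebellum, a difference of 2.69 (SE 0.39, edgeR adjusted p = 2.98e-04) and 2.27 (SE 0.39, edgeR adjusted p = 6.33e-04). Nfib rose by 2.90 (SE 0.31, edgeR adjusted p = 2.92e-05) and 2.76 (SE 0.30, edgeR adjusted p = 2.80e-05), from 289, 314 and 381 CPM in cerebellum to 1700 CPM or more in each tumour library. Of the glial genes that fell, Aldh1l1, a folate enzyme used as an astrocyte marker, fell by 2.96 (SE 0.63, edgeR adjusted p = 0.00350) and 3.01 (SE 0.61, edgeR adjusted p = 0.00206), and Aqp4, the water channel of astrocyte endfeet, by 2.74 (SE 0.61, edgeR adjusted p = 0.00480) and 2.75 (SE 0.61, edgeR adjusted p = 0.00359). Without Ptch1 replicate 2 the Ptch1 differences were -4.28 for Aldh1l1 and -3.83 for Aqp4. Gfap, the astrocyte filament (0.27 and -0.46), and Slc1a2, a glutamate transporter of astroglia (-0.18 and -0.49), did not pass. Aldh1l1 and Aqp4 also belong to the astroglial markers above.

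No gene of these 3 lists passed between A1G and Ptch1 tumours, with 2 of 17, 3 of 10 and 1 of 10 at an unadjusted p under 0.05, where 10.6% of all genes were. Among the stem and progenitor genes these were Hes5, a Notch target at 0 to 8.54 CPM, with a difference of -3.06 (edgeR adjusted p = 0.368), and Prom1, with a difference of 1.34 (edgeR adjusted p = 0.337). Among the young neuron genes they were Dcx, at 0.81 (edgeR adjusted p = 0.449), Stmn1, at -0.84 (edgeR adjusted p = 0.348), and Nhlh1, at 1.03 (edgeR adjusted p = 0.466), which was 0.18 without A1G replicate 2. Among the glial genes it was Gfap, at 0.73 (edgeR adjusted p = 0.449). Hes5 and Gfap were named after their values were seen, and Prom1, Pcna, Neurod1 and Slc1a2 were also named outside the rule set for these lists.

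Genes with the profile most like that of each Sox gene were found by Pearson's r of log2(CPM + 1) over the 9 libraries, among 9995 genes with a mean of at least 10 CPM (9996 for Sox21). Libraries of 1 group share their tissue, so that r is a description without a test. For Sox11 they were Igfbpl1 (r = 0.998) and Adamts14 (r = 0.997), both below 1 CPM on average in cerebellum. For Sox4 they were Gart (0.989) and Lmnb1 (0.982), for Sox12 Smarcc1 (0.979) and Msi1 (0.979), and for Sox1 Elavl2 (0.990) and Ddx39b (0.985). For Sox2 they were Gclc (0.945) and Tnc (0.944), for Sox9 Dnajc13 (0.970) and Celf1 (0.946), and for Sox21 Prkag2 (0.986) and Slc2a1 (0.983).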

How the data were processed

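RNA abundance was measured in 9 libraries, 3 per group, from ribosome-depleted RNA sequenced on an Ion Proton. Per the submitters' processing notes the build was mm10 and Bowtie 0.12.2 was named. The annotation, counting tool and use of strand are not given in the sources used here. The expected counts are unscaled fragments that the authors assigned to genes, per the file headers. The deposited signal columns hold these fragments scaled by the authors with 1 factor per library, and were not used. The deposited FPKM values are the authors' scaled fragments per kilobase of gene, normalised to the total. They served for the filter, for shares within a library and for limma.

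Fragments were rounded to whole numbers and fitted with edgeR 4.0.16 (quasi-likelihood, TMM scaling, 1 mean per group over 9 libraries) on the 14337 genes that reached 1 FPKM in 3 or more libraries. CPM values use the TMM-scaled totals. Benjamini-Hochberg adjustment ran over all genes tested, and an exact two-sided permutation test of log2(CPM + 1) was run per gene. Alternatives used limma 3.58.1 on log2(FPKM + 1) and log2(FPKM + 0.1), DESeq2 1.42.0, its size factors, other filters, only the groups compared, a replicate block and each library left out. The last was repeated with the gene filter of all 9 libraries, an alternative chosen after seeing the data. The fit was tested on simulated data. Other tools were R 4.3.3 and Python 3.11.15. Positions are from GENCODE on mm10 and promoters from RefSeq. No pair of replicates was as close as sampling noise allows, with chi-square at 11.3 to 45.8 times its degrees of freedom.

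The Sox genes, gene lists and markers were chosen with earlier results of these data known. All 8 Sox genes were named whatever their values, other Sox genes where they passed, from each list the 4 with the largest differences past the threshold, and for each Sox gene the 2 most alike. Prom1, Pcna, Hes5, Neurod1, Gfap, Slc1a2 and single cell type markers were named outside this rule.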

Additional observations from a re-analysis of the deposited data

How the results depend on the processing

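The 7 tested Sox genes gave 21 differences over the 3 comparisons, and these were recomputed 533 times under other settings or with a library left out. In 513 of these the side of the threshold was kept, in 13 a call was lost, in 7 one was gained, and 0 changed direction past the threshold. The total includes the comparison of the tumour kinds, in which no Sox gene was called, and so had no call to lose. All 13 lost calls were those of Sox9 in Ptch1 tumours, which was recomputed under 26 settings. The gained ones were Sox2 and Sox9 in A1G tumours. Besides the values given with the results, the Sox9 call in Ptch1 tumours ended with limma at pseudocounts 1 (1.44, adjusted p = 0.0557) and 0.1 (1.58, adjusted p = 0.0606), with only the groups compared (1.49, edgeR adjusted p = 0.0682), without A1G replicate 3 (edgeR adjusted p = 0.0565) and without cerebellum replicate 2 (edgeR adjusted p = 0.114), and that in A1G tumours was gained without the filter (edgeR adjusted p = 0.0240).

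The number of Sox genes lower in A1G tumours than in cerebellum was 0, and 1 (Sox2) without a filter or with DESeq2. The number lower in Ptch1 tumours was 1 (Sox21), and 0 with the stricter filter or without any 1 cerebellum library, since Sox21 then falls under the filter. It ranged from 0 to 1 over the left-out libraries. With the full gene filter kept, the adjusted p of Sox21 without 1 library was at most 0.0259. The number higher was 4 or 5 in each tumour kind over left-out libraries. Between the tumour kinds it was 0 under every setting run.

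Replicate numbers are not stated to pair the libraries. Deviations from the group means correlated by -0.0689, 0.0609 and 0.143 between A1G and Ptch1 libraries of 1 number. The values were 0.211, -0.0570 and -0.0463 between A1G and cerebellum, and 0.0216, 0.0695 and 0.125 between Ptch1 and cerebellum. Libraries of unlike number gave -0.253 to 0.239, a range that holds all of these, so the values cannot decide whether numbers pair libraries. With the number as a replicate block, 4 Sox genes were higher in A1G and 4 in Ptch1 tumours, where Sox9 did not pass (1.56, edgeR adjusted p = 0.0502), with 0 and 1 lower. Over all genes, 2 were higher and 0 lower in A1G than in Ptch1 tumours. These counts were 72 and 9 without a filter and 107 and 56 with DESeq2. The first was 0 with limma at pseudocount 1, with only the groups compared or without Ptch1 replicate 2, and 4 without A1G replicate 1, A1G replicate 2 or Ptch1 replicate 3. The second was 1 without A1G replicate 3. The cause was not tested. Depth limits Sox3 and Sox21, with at most 7 and 45 fragments a library.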
